A study of Mus musculus and Homo sapiens with 9 samples.

Results

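R-loops are structures in which a nascent RNA pairs with 1 strand of the DNA duplex and displaces the other strand. They form often at CpG-rich promoters of active genes, and RNase H1 is the nuclease that degrades the RNA of the hybrid. MCM8 is a helicase of the minichromosome maintenance family, known for its part with MCM9 in homologous recombination and for its link to gonad development. The question addressed here is where peaks of MCM8 overlapped R-loop peaks both without and with a plasmid meant to lower R-loops.

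The sites described are the 970 FLAG-MCM8 peaks, of 13295 on assembled chromosomes (7.30%), that shared at least 1 bp with an S9.6 peak and with a peak of the list labelled RNH1, and shared none with an IgG peak. These members were chosen by measured peak overlaps, and are called kept sites below. The S9.6 and RNH1 peaks of a kept site did not have to overlap each other. All 4 lists came from HEK293, a human embryonic kidney line labelled wildtype, profiled by CUT&Tag, which uses an antibody-guided transposase to cut and tag nearby DNA for sequencing. The 4 libraries were mouse IgG, anti-FLAG in cells given a FLAG-MCM8 plasmid, the S9.6 antibody against RNA-DNA hybrids with no plasmid named, and S9.6 in cells given an RNH1 plasmid, the study's short name for RNase H1. FLAG-MCM8 was expressed from a plasmid, so the sites are those of the tagged, overexpressed protein. Overlap of peaks from separate libraries does not show that both signals lay on the same DNA molecule. Whether the S9.6 signal at kept sites was RNA-DNA hybrid was not tested. The series also holds 5 libraries of mouse embryonic fibroblasts (MEFs): S9.6 in Mcm8 wildtype, Mcm8 knockout, shControl and Ddx5 knockdown (shDdx5) cells, and wildtype cells with no primary antibody.

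Each group held 1 library, so differences between shares are given with 95% intervals that cover counting error only, and are said to hold when the interval leaves out 0. The recovered depth was 8314 fragments per Mb in FLAG-MCM8, 10395 in S9.6, 10923 in IgG and 11050 in the list labelled RNH1. The remaining FLAG-MCM8 peaks served for comparison: 513 had an S9.6 peak but no RNH1 peak (absent sites), 430 had an RNH1 peak only, 10716 had neither and 666 had an IgG peak. Overlap with S9.6, RNH1 and IgG chose the classes, so values of those lists, and of FLAG-MCM8 itself, are descriptions without a test.

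One kept site went against the labels. The strongest of all, chr20:5967426-5968037 (hg38), lay in coding sequence of MCM8 itself and had the same first and last base in 3 lists, with a fold of 21.6 and a −log10 q of 3887 in FLAG-MCM8. In S9.6 these were 19.7 and 1012, and in the list labelled RNH1 17.7 and 296. No IgG peak lay there. The FLAG-MCM8 plasmid carries this coding sequence, yet the labels of the S9.6 and RNH1 libraries name no such plasmid. What put it in those 2 libraries was not tested. Other FLAG-MCM8 peaks in the MCM8 gene had neither an S9.6 nor an RNH1 peak. With the gene left out, 10714 of the 10716 sites with neither and 969 kept sites remained, and none of the 8 main results changed its call.

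Summit sequences of the strongest promoter sites show the kind of DNA involved. Each spans 50 bp on either side of the FLAG-MCM8 summit on the plus strand of hg38, and capitals mark the GC box that SP1 binds, GGGCGG or its reverse complement. The first 4 are the strongest kept promoter sites of protein-coding genes whose window held at most 30 bases of UTR: FOXK2, a forkhead transcription factor (chr17:82586343-82586443, intron), ENSA, an inhibitor of the phosphatase PP2A in mitosis (chr1:150629305-150629405, intron), KHSRP, an RNA-binding protein of splicing and decay (chr19:6425128-6425228, upstream of the gene), and ABCB8, a mitochondrial transporter (chr7:151028615-151028715, noncoding exon). CDK4, the G1 kinase, is shown as a cell cycle gene (chr12:57752575-57752675, intron).
FOXK2: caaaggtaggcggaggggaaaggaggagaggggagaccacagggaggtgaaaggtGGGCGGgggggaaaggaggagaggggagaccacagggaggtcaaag
ENSA: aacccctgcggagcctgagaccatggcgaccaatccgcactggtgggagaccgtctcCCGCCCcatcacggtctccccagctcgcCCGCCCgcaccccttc
KHSRP: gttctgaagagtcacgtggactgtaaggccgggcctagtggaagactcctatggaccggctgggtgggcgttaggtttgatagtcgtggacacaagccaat
ABCB8: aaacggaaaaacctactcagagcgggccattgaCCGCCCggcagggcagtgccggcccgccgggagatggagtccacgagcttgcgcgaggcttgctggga
CDK4: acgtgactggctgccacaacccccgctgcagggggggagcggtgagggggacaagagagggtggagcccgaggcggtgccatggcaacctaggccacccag

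For comparison, the strongest absent promoter sites under the same rule were ARRB2 (chr17:4710354-4710454) and OPA3 (chr19:45584634-45584734), with the same capitals.
ARRB2: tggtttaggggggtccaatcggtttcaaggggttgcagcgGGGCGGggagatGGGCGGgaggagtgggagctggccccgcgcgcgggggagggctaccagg
OPA3: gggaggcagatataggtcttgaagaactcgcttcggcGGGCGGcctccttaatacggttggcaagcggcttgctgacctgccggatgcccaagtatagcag

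The FOXK2 window is also a tandem repeat: 92.5% of its bases equal the base 48 bp away, against at most 47.6% for any period of 8 to 80 bp in the other 6 promoter windows shown.

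Other strong kept sites were tandem repeats outside promoters, shown with 1 repeat unit in capitals. The window near the pseudogene ENSG00000235371 (chr1:236097213-236097313, intergenic) repeats every 29 bp and that in SPAST, which encodes spastin (chr2:32110924-32111024, intron), every 34 bp. The nearest IgG peak was 10970 bp from the first FLAG-MCM8 peak and 328 bp from that in SPAST.
ENSG00000235371: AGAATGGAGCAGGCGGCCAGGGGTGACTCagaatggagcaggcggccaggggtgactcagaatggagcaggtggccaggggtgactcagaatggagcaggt
SPAST: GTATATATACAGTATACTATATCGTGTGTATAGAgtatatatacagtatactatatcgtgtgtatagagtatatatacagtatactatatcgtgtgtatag

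Most kept sites were promoters. Of the 970, 712 (73.4%, 95% Wilson interval 70.5 to 76.1) had their midpoint within 1 kb of a transcription start site (TSS) in GENCODE 44, against 241 of 513 absent sites (47.0%), 181 of 430 sites with an RNH1 peak only (42.1%), 133 of 666 sites with an IgG peak (17.1 to 23.2%) and 1561 of 10716 sites with neither (14.6%). Kept sites exceeded absent sites by 26.4 points (Newcombe interval 21.2 to 31.5) and sites with neither by 58.8 points (55.9 to 61.6). Both differences held. A further 160 kept sites lay 1 to 10 kb from a TSS and 98 (10.1%) lay over 10 kb away, where 48.2% of the sites with neither were found.

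The promoter difference was then taken within 4 bins of peak strength, equal in number of sites. In each bin of FLAG-MCM8 peaks by −log10 p, kept sites were more often at promoters than absent sites, by 23.3 to 32.1 points, and each interval left out 0. S9.6 strength behaved otherwise: the promoter share rose with it in both classes, from 53.4% to 87.0% in kept sites and from 33.6% to 80.8% in absent sites. The difference was 19.8 points (9.27 to 29.8) in the weakest bin of the 1483 kept and absent sites by S9.6 −log10 p, and 63.8% against 48.8% (interval of the difference 4.83 to 24.8 points) in the next. In the upper bins it was 2.75 points (−7.44 to 14.2) and 6.19 points (−5.25 to 25.1), not detectable at these counts, with 85 and 26 absent sites. Kept sites had stronger S9.6 peaks by the rule's own measures, with a median fold of 5.30 against 4.39 in absent sites.

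**Figure D1:**
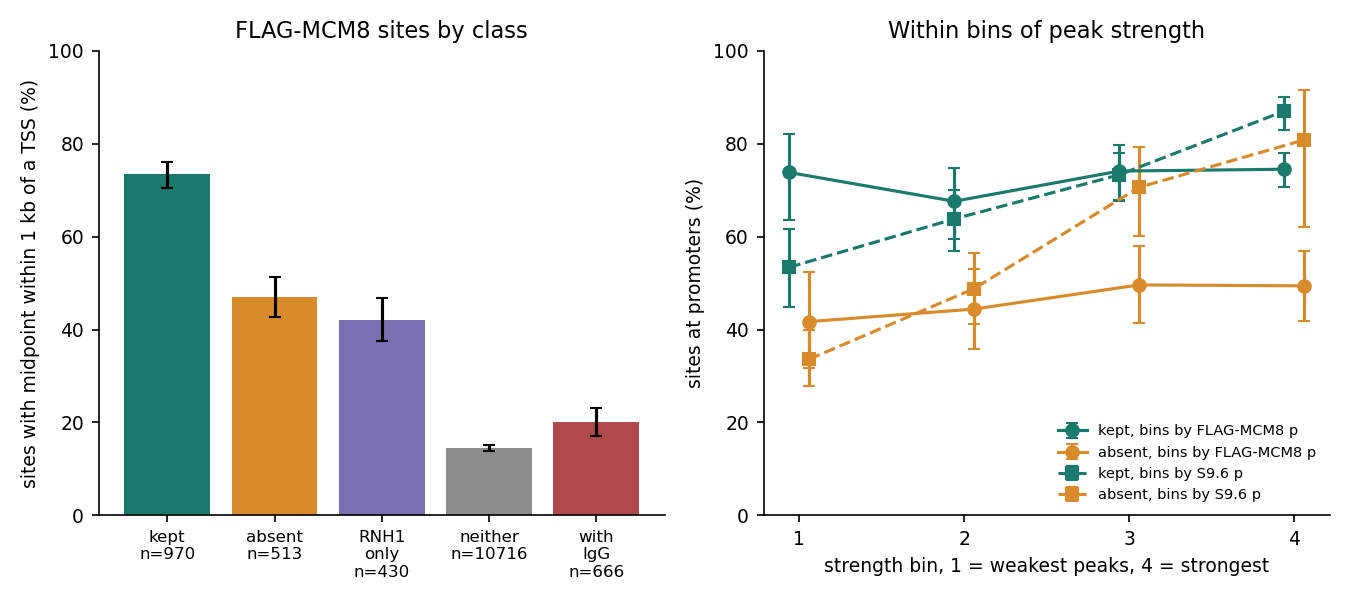
Left, share of FLAG-MCM8 sites with the midpoint within 1 kb of a TSS (%), by class, with n below each bar. Right, the same share in kept and absent sites within 4 bins of peak strength, by FLAG-MCM8 p (circles, solid) or S9.6 p (squares, dashed). Bars and points carry 95% Wilson intervals. Kept sites stand at 73.4% against 47.0% in absent sites, and the dashed lines lie 2.75 and 6.19 points apart in the upper bins, with overlapping intervals.

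At the promoters, the 3 marks peaked on the TSS. The FLAG-MCM8 summit lay at a median of 0 bp from it (quartiles −118 and 111 bp), the S9.6 summit at −10 bp and the RNH1 summit at −4 bp, and 67.6%, 71.8% and 70.9% of summits were within 200 bp. Promoter sites have their midpoint within 1 kb of a TSS, so part of this centring follows from their definition. The FLAG-MCM8 median was 4 bp at absent promoter sites (quartiles −145 and 153 bp). It was 5 bp at those with an IgG peak, 16 bp with an RNH1 peak only and 41 bp with neither. Downstream summits made up 48.9% of kept and 52.7% of absent promoter sites, a difference of −3.82 points (−11.0 to 3.47) that was not detectable, while the 55.7% at sites with neither was higher than in kept sites (difference −6.79 points, −11.2 to −2.37). Over all 970 sites the FLAG-MCM8 summit was a median of 153 bp from its S9.6 summit and 144 bp from its RNH1 summit. The S9.6 and RNH1 summits were 110 bp apart. By annotation, 392 FLAG-MCM8 summits were in introns, 243 intergenic, 187 in 5′ UTRs, 88 in noncoding exons, 51 in coding exons and 9 in 3′ UTRs.

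**Figure D2:**
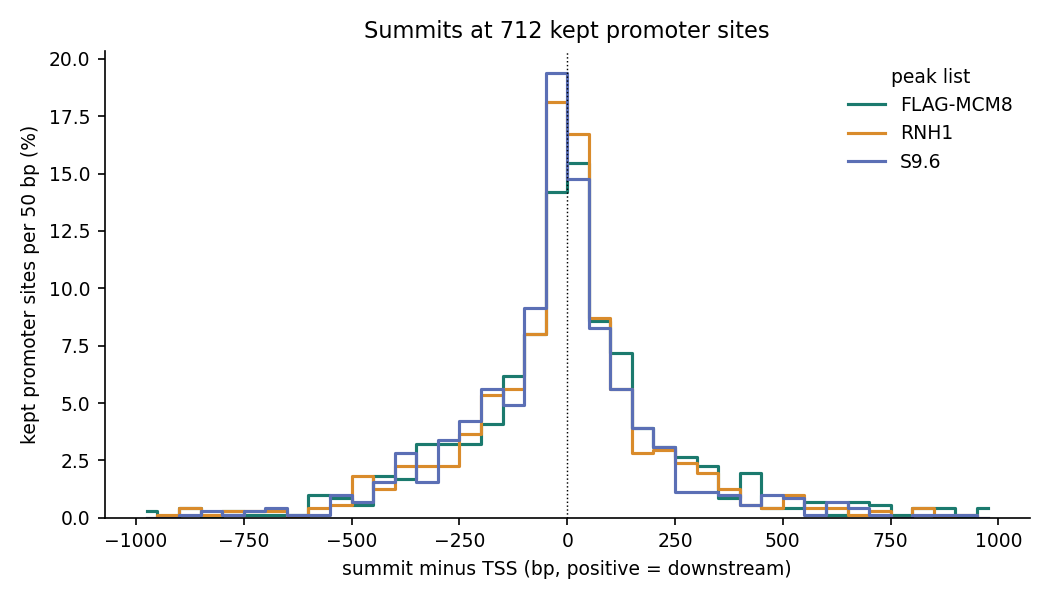
Position of the FLAG-MCM8, S9.6 and RNH1 summits relative to the nearest TSS (bp, positive downstream) at the 712 kept promoter sites, as the share of sites per 50 bp (%). The 3 curves peak together at the TSS.

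Kept promoter sites were CpG-rich. A window of 100 bp on either side of the summit with a GC content of at least 50% and an observed to expected CpG ratio of at least 0.6 (CpG-island-like) occurred at 518 of 712 kept promoter sites (72.8%), 142 of 241 absent ones (58.9%) and 379 of 1561 with neither (24.3%), and in 67.9% of windows centred on the TSSs of 19958 protein-coding genes. The difference from absent sites was 13.8 points (6.92 to 20.9). Within bins of S9.6 strength it held in the weakest only (23.4 points, 7.41 to 37.7), and was 9.92, −3.23 and −12.5 points in the others, with intervals that took in 0.

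A motif for a G-quadruplex, a fold of G-rich single strands that can form opposite the hybrid (4 runs of at least 3 G with loops of 1 to 7 bases, both strands), was found at 23.3% of kept and 21.2% of absent promoter sites. The difference of 2.15 points (−4.17 to 7.85) was not detectable. Sites with neither had it in 12.8% and all promoters in 25.4%.

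Of 8 short motifs searched on both strands, the SP1 box GGGCGG and the NRF1 core GCGCATG were more frequent in kept than in absent promoter sites. SP1 boxes were at 57.3% against 43.6% (difference 13.7 points, 6.44 to 20.8; 53.6% of all promoters) and NRF1 cores at 4.49% against 1.24% (3.25 points, 0.567 to 5.21; 4.14% of all promoters). The boxes of NFY (CCAAT, 26.8% of kept sites and 25.3% of all promoters), ETS (CCGGAAG, 7.02% and 11.3%), the CRE core (TGACGT, 6.88% and 6.89%), YY1 (AAGATGG, 4.07% and 5.32%), E2F (TTGGCGC, 3.37% and 2.80%) and the core promoter box (TATAAA, 2.39% and 6.68%) differed between kept and absent sites by less than their counting error. The intervals of these 16 motif comparisons, 8 with absent sites and 8 with sites that had neither, were not widened for their number. The NRF1 difference rests on 32 of 712 kept and 3 of 241 absent promoter sites. None of these comparisons was taken within bins of S9.6 strength. A match is a string of letters in a window, not a bound factor.

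**Figure D3:**
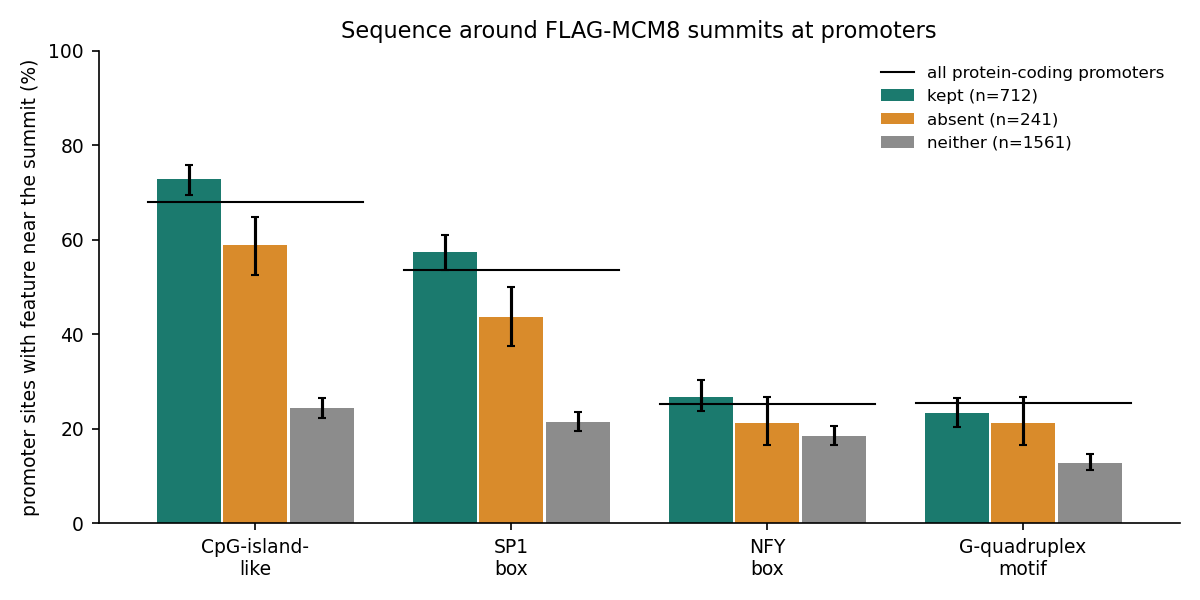
Share of FLAG-MCM8 promoter sites whose summit window is CpG-island-like or holds an SP1 box, an NFY box or a G-quadruplex motif (%), for kept, absent and neither sites, with 95% Wilson intervals; black lines give the share in all protein-coding promoters. Kept sites reach 72.8% for CpG-island-like windows and stand near the black lines throughout.

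Outside promoters the kept sites held many tandem repeats. A window was counted as a tandem repeat when at least 80% of its bases equalled the base 1 period away, for a period of 8 to 80 bp, a measure added after the sequences of the strongest sites were seen. It took in 52 of 258 kept sites outside promoters (20.2%, 15.7 to 25.5), against 14 of 272 absent sites (5.15%), 20 of 249 with an RNH1 peak only (8.03%), 80 of 9155 with neither (0.874%) and 82 of 533 with an IgG peak (15.4%). The kept share exceeded that of absent sites (interval of the difference 9.47 to 20.7 points), and that of sites with neither by 19.3 points (14.8 to 24.6). From the share at sites with an IgG peak it differed by 4.77 points (−0.768 to 10.8), within counting error. Within bins of S9.6 strength, from the weakest to the strongest, the difference from absent sites was 0.408 points (−5.05 to 9.16), 8.71 (−0.863 to 19.0), 23.6 (4.21 to 36.1) and 31.1 (−13.9 to 45.7), so that it held in 1 bin of 4. The strongest bin held 5 absent sites outside promoters.

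Only 5 of the 712 kept promoter sites were repeats, which made 57 in all. FOXK2 was not among them, since in the longer window of 100 bp on either side 75.8% of its bases matched. With the printed window of 50 bp on either side, 8 kept promoter sites, FOXK2 included, and 71 kept sites outside promoters (27.5%) were repeats, against 9.56% of absent sites outside promoters and 24.8% of those with an IgG peak. They gathered at the top of the list: 5 of the 10 strongest kept sites by FLAG-MCM8 −log10 q, 19 of the strongest 100 and 38 of the other 870. The period had a median of 43 bp, 8 windows matched at every base, and 5 of the 57 sites lay within 1 kb of an IgG peak, as did 36 of all 970. Reads from repeats can be placed at any of their copies, and how such reads were handled is not given in the sources used here. With the repeats left out, 707 of 913 kept sites (77.4%) were promoters, 29.1 points (23.9 to 34.2) above absent sites.

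**Figure D4:**
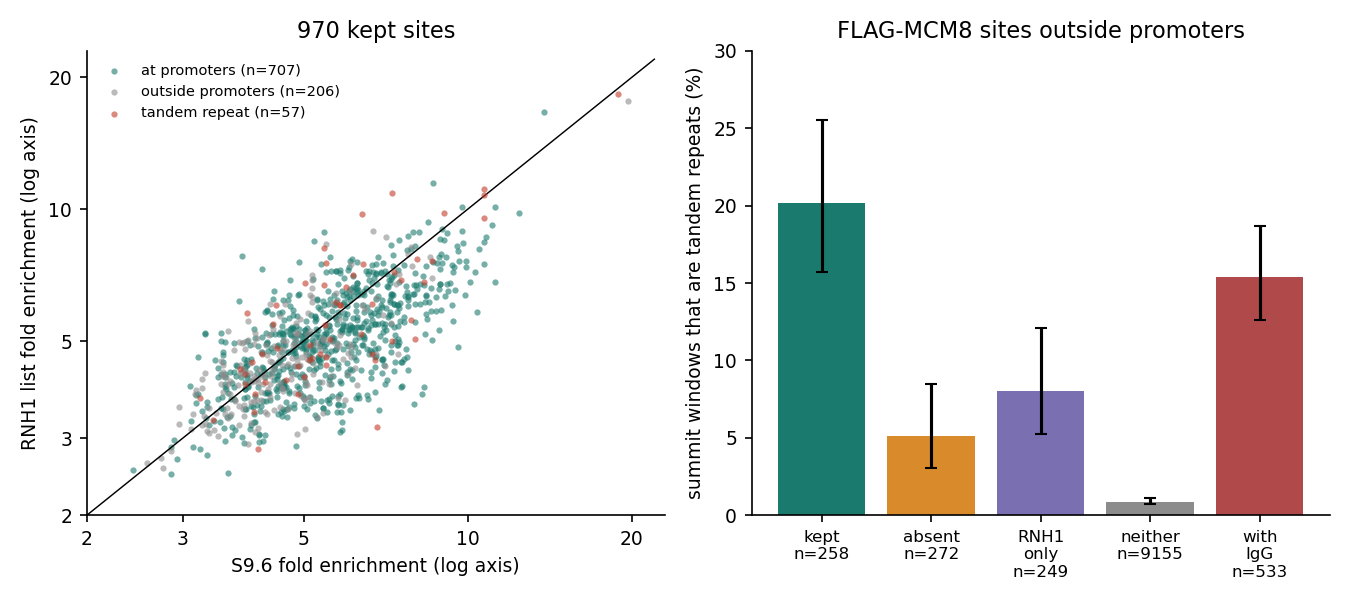
Left, fold enrichment in the list labelled RNH1 against S9.6 at the 970 kept sites (log axes, line of equality), split into promoter sites, sites outside promoters and tandem repeats. Right, share of sites outside promoters whose summit window is a tandem repeat (%), by class, with 95% Wilson intervals. Points scatter around and slightly below the line, and the kept bar stands at 20.2%.

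The 10 strongest kept sites were thus mixed. After the MCM8 coding peak came the repeat near ENSG00000235371, with a FLAG-MCM8 fold of 15.3, an S9.6 fold of 18.9 and an RNH1 fold of 18.3, and the FOXK2 intron site, a repeat in the shorter window only, with 13.4, 13.8 and 16.7. Repeats near CCDC183, PTGIS, MMP8 and in SPAST followed, with FLAG-MCM8 folds of 8.46, 10.7, 10.9 and 10.8. The rest were U1 small nuclear RNA genes, which encode the RNA that recognises 5′ splice sites: RNU1-1 (8.16 in FLAG-MCM8, 4.65 in S9.6, 3.93 in the list labelled RNH1), RNU1-3 (8.64, 5.33, 3.90) and RNU1-4 (7.72, 4.68, 6.21). These genes are near-identical copies on chromosome 1, so their reads cannot be assigned with certainty. In all 9 of 712 kept promoter sites (1.26%) lay at small nuclear RNA genes, among them RNU5D-1 and RNU4-2. The share was nearly the same at absent promoter sites, 3 of 241 (1.24%). Another 2 kept promoter sites lay at the signal recognition particle RNA genes RN7SL1 and RN7SL2. Over 10 kb from any TSS, the strongest sites were those near ENSG00000235371 and PTGIS, then sites near MMEL1 (FLAG-MCM8 fold 4.18), ENSG00000287871 (7.19) and ENSG00000288970 (7.74).

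By the values that chose them, kept sites had nearly the same S9.6 signal in both libraries. The median fold was 5.30 in S9.6 (range 2.43 to 19.7) and 4.90 in the list labelled RNH1 (2.49 to 18.3), and it was lower in the latter at 609 sites (62.8%). Summit pileups, the number of fragments over the summit, were scaled to the same depth, and the ratio of RNH1 to S9.6 then had a median of 0.941 (quartiles 0.790 and 1.11) over the 968 sites where both could be solved. The 2935 S9.6 peaks with an RNH1 peak and neither a FLAG-MCM8 nor an IgG peak had the same median, 0.941 (0.812 and 1.13). At depths of 10395 and 11050 fragments per Mb, equal fragment counts give a ratio of 0.941. Both medians thus stand for equal counts before scaling, and the depth estimate itself was not checked. Among kept sites the median ratio was 0.901 at promoters, 1.03 outside them and 1.08 in tandem repeats.

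The ratio was under 0.5 at 8 sites and above 2 at 1. The lowest were at the promoters of DNPEP, an aspartyl aminopeptidase (fold 8.23 in S9.6, 3.78 in the list labelled RNH1, pileup ratio 0.392), TXNDC11 (6.09, 3.48, 0.462), CNIH4 (6.75, 3.83, 0.470) and REV1, a translesion DNA polymerase (8.36, 5.20, 0.480). CDS2, SNX15, RANBP2 and the long noncoding RNA gene ENSG00000275765 lay between 0.482 and 0.487. The site above 2, near RNU6-1307P, was a tandem repeat, with folds of 3.93 and 5.80. With 1 library on each side, these ratios have no replicate check.

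In the S9.6 list, peaks that overlapped FLAG-MCM8 more often had an RNH1 peak, with IgG peaks left out on both sides. The shares were 970 of 1467 (66.1%) against 2935 of 12849 without FLAG-MCM8 (22.8%). These 970 are S9.6 peaks, a different set from the 970 kept sites: the kept FLAG-MCM8 peaks were assigned to 962 distinct S9.6 peaks. From the weakest to the strongest of 4 bins of S9.6 peaks the shares were 25.7% against 8.26%, 40.9% against 13.4%, 50.5% against 23.6% and 85.2% against 54.0%. These shares follow from the rule and are a description.

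Location and sequence could be compared between the S9.6 peaks kept in the list labelled RNH1 with and without FLAG-MCM8. Promoters made up 73.8% of the former (716 of 970) and 69.4% of the latter (2036 of 2935), a difference of 4.44 points (1.15 to 7.60). Within bins of S9.6 strength this was between −5.52 and 0.432 points and no bin's interval left out 0, with an interval of −3.28 to 3.96 in the strongest, which held 694 of the peaks with FLAG-MCM8. CpG-island-like windows (78.5% and 75.1%, difference −0.256 to 6.84 points) and G-quadruplex motifs (23.6% and 21.8%, −1.65 to 5.53 points) did not differ detectably at the promoters. Tandem repeats did: outside promoters they were 18.9% of the S9.6 summit windows with FLAG-MCM8 and 5.23% without (difference 13.7 points, 9.03 to 19.1). In the strongest bin these were 27.9% against 9.57% (18.4 points, 10.4 to 26.9). SP1 boxes at the promoters were at 59.9% and 55.7% (difference −0.0494 to 8.31 points). Their difference was 15.3 points (4.61 to 24.8) in the next-to-strongest bin and −2.41 points (−7.40 to 2.53) in the strongest.

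Kept promoter sites fell within 1 kb of a TSS of 809 of 20007 protein-coding genes (4.04%), or 806 of the 6022 with an S9.6 promoter peak (13.4%). The gene lists that follow are read against these shares. A site can serve several genes whose TSSs lie close together, and 20.5% of kept promoter sites, against 11.2% of absent ones, had protein-coding TSSs on both strands within 1 kb.

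Splicing factors and hnRNPs, which bind nascent transcripts, had the largest share of the 11 lists: 12 of 53 genes (22.6%), and 12 of the 35 with an S9.6 promoter peak (34.3%). The 4 with the strongest FLAG-MCM8 peaks were PRPF31, a factor of the U4/U6 tri-snRNP (fold 7.31 in FLAG-MCM8, 4.85 in S9.6, 4.63 in the list labelled RNH1), HNRNPL (6.13, 5.91, 5.41), the splicing regulator SRSF10 (6.42, 4.64, 5.26) and HNRNPA0 (6.40, 9.10, 6.34). At HNRNPD, an AU-rich element binding protein, the S9.6 fold was 10.4 and the RNH1 fold 5.81. Others were HNRNPA2B1, HNRNPF, HNRNPK, HNRNPR, SNRPA and SRSF9.

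Cell cycle control genes were at 8 of 58 (13.8%), and at 8 of 34 with an S9.6 promoter peak (23.5%). GMNN, whose product geminin keeps origins from being licensed again, had a FLAG-MCM8 fold of 8.15, an S9.6 fold of 5.62 and an RNH1 fold of 7.24. CDK4 had 5.18, 6.08 and 6.21, so at both genes the fold in the list labelled RNH1 was above that in S9.6. At the promoter shared by USP37, a deubiquitinase, and CNOT9 the folds were 6.40, 7.78 and 6.34. The CDK inhibitor CDKN2C had 6.16, 6.23 and 5.38. ANAPC5 of the anaphase-promoting complex, the transcription factor E2F3 and the CDK1-inhibiting kinases WEE1 and PKMYT1 made up the rest, PKMYT1 with the lowest folds (3.13, 2.43 and 2.54).

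DNA replication genes were at 3 of 46 (6.52%), and at 3 of 24 with an S9.6 promoter peak (12.5%). The 3 were the helicase subunit MCM7 (7.31, 3.70 and 3.19 in the same order), the sliding clamp PCNA (7.50, 9.38 and 5.57) and the origin recognition subunit ORC6 (5.99, 8.89 and 8.56). Homologous recombination and Fanconi genes were at 2 of 35 (5.71%), and at 2 of 24 with an S9.6 promoter peak (8.33%): FANCA and RAD54L. R-loop factors were at 3 of 38 (7.89%), and at 3 of 16 with an S9.6 promoter peak (18.8%): SIN3A, TDRD3 and THOC6. Over all protein-coding genes with an S9.6 promoter peak the share was 13.4%. Of the R-loop helicases the study names as partners of MCM8, DDX5 had an absent site at its promoter (FLAG-MCM8 fold 6.16, S9.6 fold 4.07, no RNH1 peak) and DHX9 had no FLAG-MCM8 peak within 1 kb of a TSS, nor had MCM8.

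Immediate-early genes were at 3 of 21 (14.3%), and at 3 of 9 with an S9.6 promoter peak (33.3%): FOSL2, IER5 and JUN. Hosts of small nucleolar RNAs were at 2 of 17 (11.8%), GAS5 and TAF1D. Cytosolic ribosomal protein genes, which are among the most transcribed, were at 2 of 74 (2.70%), of which the RPS29 site is also that of RN7SL1, although 25 had an S9.6 promoter peak. Proteasome subunits were at 1 of 31 (3.23%) and replication-dependent histones at 1 of 49 (2.04%). Among those with an S9.6 promoter peak the shares were 6.25% and 11.1%. None of 36 genes of neurons, muscle, blood and liver chosen as silent in kidney lines had a kept site. The share over all protein-coding genes was 4.04%, and 5 of the 36 had an S9.6 promoter peak. The lists are short, and their counts were not tested against the shares over all genes.

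The promoters with kept sites in HEK293 cells were more often marked in mouse fibroblasts than those with absent sites or with neither, but not detectably more often than those whose FLAG-MCM8 site had an IgG peak. Of the 490 genes with a same-symbol mouse gene, 370 (75.5%) had a peak of at least 1 of the 4 MEF S9.6 lists within 1 kb of a TSS, against 106 of 169 (62.7%) for absent sites, 53.7% for sites with neither and 42.7% of all 15742 genes matched by symbol. The difference from absent sites was 12.8 points (4.79 to 21.1) and that from sites with neither 21.8 points (16.6 to 26.7). Kept sites had stronger S9.6 peaks than absent sites, and this comparison was not taken within bins of S9.6 strength. Genes whose site had an IgG peak stood at 77.0% (57 of 74), and kept sites differed from them by −1.52 points (−10.6 to 9.84), which was not detectable at this count. Among all genes with an HEK293 S9.6 promoter peak the share was 64.1%. Genes marked in all 4 MEF S9.6 lists were 24.3% of those with kept sites, 9.47% of those with absent sites, 16.2% of those with an IgG peak and 5.39% of all genes. In the MEF library without primary antibody the shares were 2.65% and 1.78% for kept and absent sites, 0.878 points apart (−2.61 to 3.05).

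Taken 1 list at a time, the difference between kept and absent sites was 17.2 points in Mcm8 wildtype, 16.6 in Mcm8 knockout and 10.5 in shDdx5 MEFs, and 40.8% against 27.8% in shControl MEFs, each with an interval that left out 0. Against sites with an IgG peak it was 11.0, −3.39 and 0.618 points in the first 3 of these and −5.13 in shControl MEFs, each with an interval that took in 0. USP37 had a promoter peak in all 4 MEF S9.6 lists, as had PCNA and HNRNPK. CDK4 and GMNN had 1 in 2 of the lists, and FOXK2 in 0. Absent from the kept sites in HEK293 cells, DDX5 had 1 in 3 of the 4.

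**Figure D5:**
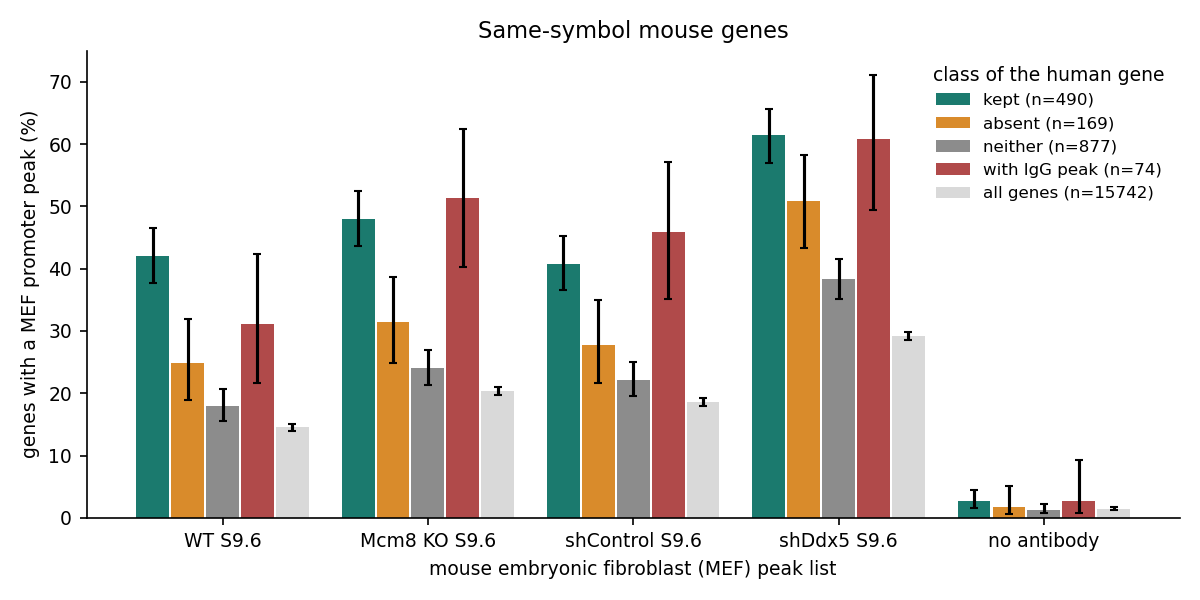
Share of same-symbol mouse genes with a peak within 1 kb of a TSS (%) in each MEF library, for genes with a kept, absent, neither or IgG-overlapping FLAG-MCM8 promoter site in HEK293 cells and for all genes, with 95% Wilson intervals. In each S9.6 list the kept bar, up to 61.4% in shDdx5, is above the absent and neither bars, while the IgG bar is higher in Mcm8 knockout (51.4%) and shControl MEFs (45.9%). Without antibody all bars are at 2.70% or lower.

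The rule's edges were narrow at some sites. Among kept sites the smallest overlap with S9.6 was 2 bp at CTU2 and that with the list labelled RNH1 2 bp at UVSSA and at NEURL1. At RNVU1-29 on chromosome 1, the S9.6 peak ended at 146376942 and the RNH1 peak began at 146377313, so the 2 did not overlap. Just outside, the absent sites at SSH1 and UBALD1 were 4 and 6 bp from an RNH1 peak, and 55 of the 513 absent sites lay within 1 kb of one.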

How the data were processed

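CUT&Tag peak lists of 9 libraries, 1 per group, were used, with groups taken from the labels. The authors trimmed reads with Trimmomatic, aligned them with Bowtie2 to hg38 (HEK293) or mm10 (MEF) and called peaks per library with MACS2 (version 2.1.2 per the labels; the study's methods name another release). The study's methods give cutoffs on fold and p for HEK293 peaks, a fold over 2 among them, but the deposited S9.6 and RNH1 lists reach down to 1.79 and 1.72 and no HEK293 peak has a −log10 p under 5.00. Whether IgG served as input is not given in the sources used here. For each peak the authors deposited its summit's fold over local background (a ratio), and its −log10 p-value and −log10 q-value; the deposited score was not used.

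Peaks on assembled chromosomes that shared at least 1 bp were called overlapping. Fold and −log10 p together fix the whole-number pileup, solved for 100% of HEK293 peaks with a −log10 p under 250 (tolerance 0.001), and the lowest background divided by the shortest peak width gave the relative depth. Peak overlaps, intervals and the recovery of pileups were tested on simulated data. The depth estimate, TSS distances and sequence measures were not. Shares carry 95% Wilson intervals and differences Newcombe intervals built from them, which cover counting error only. No p-value was computed, since there are no replicates. Promoters were GENCODE 44 (human) and M21 (mouse) TSSs within 1 kb of a peak midpoint, and sequences came from hg38. MEF and HEK293 genes were matched by symbol.

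The members, gene lists and comparisons were chosen with earlier results of these data known. Named sites were the 10 strongest and the 5 strongest over 10 kb from a TSS by FLAG-MCM8 −log10 q, fixed cell cycle loci, up to 4 strongest genes per list, and sites at the edge of the rule; other sites were named after their values were seen, and a few sites that the rule names are not reported here. Alternatives covered q, fold, overlap, IgG, the MCM8 gene, promoter definition, window, mouse list and peak strength; bins by S9.6 p and tandem repeats were added after the data were seen. The tools were Python 3.11.15, pysam 0.24.0, pandas 2.3.3, matplotlib 3.10.9, numpy 2.4.6 and scipy 1.17.1.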

Additional observations from a re-analysis of the deposited data

How the results depend on the processing

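Of 111 recomputed values, 84 counted as unchanged. A difference did so when it kept its direction and its interval left out or took in 0 as in the main result. The count had to stay within 1.5 times and the share within the main interval. Among the 84 were 11 G-quadruplex and 11 downstream-summit differences whose intervals still took in 0. No paired analysis was possible because each group held 1 library. The number of kept sites, 970, was 597 with a q of 1e-05 or lower and 456 when overlaps had to cover 50% of both peaks. The share of S9.6-positive FLAG-MCM8 sites that also had an RNH1 peak, 65.4%, was 72.4% with that q, 59.4% with a fold of at least 4, 52.5% with 50% of both peaks, 62.6% with peaks within 1 kb counted and 68.2% with IgG peaks kept. The promoter difference from absent sites held under 16 of 18 alternatives and lost its call in the upper bins by S9.6 p (2.75 and 6.19 points); that from sites with neither ran from 49.9 to 62.8 points. The CpG-island-like difference lost its call with a q of 1e-05 or lower (8.44 points), in the first, second and strongest bin by FLAG-MCM8 p (12.2, 13.8 and 8.95) and in the second by S9.6 p (9.92), and turned to −3.23 and −12.5 points in the upper S9.6 bins. The G-quadruplex difference turned to −0.783 and −6.42 points in the first and the next-to-strongest FLAG-MCM8 bin and held in the strongest (11.96 points), and that of downstream summits was 11.98 points in the first. The mouse promoter difference lost its call in the first, second and strongest FLAG-MCM8 bin (10.1, 13.8 and 8.33 points) and with the list without antibody (0.878). The tandem repeat difference from absent sites lost its call in the first, second and strongest S9.6 bin (0.408, 8.71 and 31.1 points) and was 17.96 points in the shorter window. Bins hold fewer sites by construction; the cause of the other changes was not tested. The intervals set what the counts can show: that of the promoter difference spans 21.2 to 31.5 points over all sites and −5.25 to 25.1 points in the strongest S9.6 bin.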

Other observations

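Kept sites were spread unevenly over the chromosomes. They were 19.0% of the FLAG-MCM8 peaks on chromosome 19 (92 of 485) and 12.2% on chromosome 16 (62 of 508), against 7.30% of all peaks and 3.48% on X (18 of 517). The 3 FLAG-MCM8 peaks on Y, near PLCXD1 and RNA5SP498, were all kept sites and all tandem repeats. No IgG peak lay on Y, so the IgG filter could not remove them. Whether their reads came from Y was not tested. With repeats left out the shares were 18.5% on chromosome 19 (88 of 475) and 2.95% on X (15 of 509).

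At the 563 kept promoter sites nearest a protein-coding TSS, the GC content along the transcript rose from 49.2% at 1 kb upstream to 67.4% in the last 100 bp before the TSS. GC skew, the excess of G over C on the coding strand, was −0.0404 between 400 and 300 bp upstream and 0.0797 between 200 and 300 bp downstream. The 188 absent promoter sites had −0.0409 and 0.0890 in the same bins. In the last 100 bp before the TSS, CG dinucleotides were 90.6 per kb at kept and 92.9 per kb at absent sites, and between 300 and 400 bp downstream 76.5 and 67.6 per kb.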
